A study of Homo sapiens with 10 samples.

Results

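The receptor-by-time interaction asks whether the change of a transcript between 2 h and 6 h of receptor cross-linking differed between the Fc gamma receptors CD64 and CD32 in U937 cells, an established human monocytic line. For each probe set it was the CD64 step (CD64 6 h minus CD64 2 h) minus the CD32 step (CD32 6 h minus CD32 2 h) on log2 signal. A positive value means that CD64 gained more, or lost less, over that interval than CD32. The interaction used 8 of the 10 arrays of the series, and 7525 of the 8746 probe sets that are not array controls were above the floor on at least 2 of those 8 arrays and were tested. The groups were CD64 cross-linked for 6 h, CD64 cross-linked for 2 h, CD32 cross-linked for 6 h, CD32 cross-linked for 2 h, and a control with no cross-linking and no time listed, each with 2 arrays. All groups, the control included, had been differentiated with interferon gamma, so every difference was measured on top of that cytokine. The labels mark 1 array of each pair as a duplicate and name no separate culture, so the p-values rest on a spread between arrays that may be technical. The source name of the first CD32 2 h array reads otherwise than its title and description, which say CD32 and were followed.

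CD64 is the high-affinity receptor for IgG and signals through the activation motif (ITAM) of an associated gamma chain. CD32 stands for the low-affinity receptors, of which FCGR2A carries an ITAM in its own tail and FCGR2B an inhibitory motif (ITIM), and the labels do not say which form was bound. In monocytes and macrophages, clustering of the activating forms is known to start Src and Syk family kinases, calcium and MAP kinase signalling, phagocytosis, the oxidative burst and the release of cytokines and chemokines.

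Signals were linear array intensities that had been scaled by the submitters to 1 trimmed mean, and signals under a floor of 37.5 were set to that floor before log2. The median signal of the 8 cross-linked arrays lay between 101 and 138. Some technical measures moved with the interaction and others did not. The mean log2 signal of the 9 probe sets for added bacterial transcripts was 9.03 at CD64 6 h, 10.55 at CD64 2 h, 12.1 at CD32 6 h, 11.03 at CD32 2 h and 10.38 in the controls, an interaction of -2.60. The 3′ to 5′ ratio of actin was 1.12 at CD64 6 h, 1.81 at CD64 2 h, 1.99 at CD32 6 h, 1.55 at CD32 2 h and 1.31 in the controls. Its interaction was -1.12, taken on the ratios themselves and not on log2. The highest signal of any probe set averaged 15200 at CD64 6 h, 30400 at CD64 2 h, 37500 at CD32 6 h, 27500 at CD32 2 h and 28000 in the controls. CD64 6 h was thus the lowest and CD32 6 h the highest group in these 3 measures. The 3′ to 5′ ratio of GAPDH was also highest at CD32 6 h (1.17). At CD64 6 h it was 0.881, not the lowest, against 0.95 at CD64 2 h, 0.878 at CD32 2 h and 0.869 in the controls. The share of signals at or under the floor was highest at CD64 2 h (28.3%), with 24.4% at CD64 6 h and 24.9% at CD32 6 h. The part of all these measures in the results was not tested. Because the highest signals differed between groups, it is said of the main genes and lists where quantile or cyclic loess scaling ended a call. As deposited the median interaction over all probe sets was 0.17 log2, against -0.01 after quantile and -0.02 after loess scaling, and list medians are therefore given relative to the median of all genes.

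The transcripts of the cross-linked receptors gave a first view of the groups. The probe set annotated to FCGR1A, the gene of CD64, is shared with related gene copies that it cannot tell apart, and had signals of 1806 and 2032 at CD64 6 h, 1206 and 1257 at CD64 2 h, 1958 and 1834 at CD32 6 h, 2178 and 2279 at CD32 2 h, and 1458 and 1722 in the controls. The CD64 2 h arrays were the lowest of the 10 and the CD32 2 h arrays the highest, with no overlap between the cross-linked groups except between both 6 h groups. Its interaction was 0.87 ± 0.13 log2 (SE; limma adjusted p = 0.00305). FCGR2B, the inhibitory form of CD32, had 1016 and 939 at CD64 6 h, 476 and 463 at CD64 2 h, 900.1 and 772 at CD32 6 h, 664 and 651 at CD32 2 h, and 411 and 438 in the controls. It rose 2.08-fold at CD64 6 h against CD64 2 h (adjusted p = 0.000613) and its CD32 step did not pass the test. The FCGR2B interaction of 0.71 ± 0.17 passed as deposited (adjusted p = 0.0228) but was 0.50 after quantile and 0.47 after loess scaling, where it did not pass. FCGR2A, the activating form of CD32, had 8 overlapping cross-linked arrays between 596 and 737, and its interaction was -0.02 ± 0.18 (adjusted p = 0.965). PTPN6, which encodes the phosphatase SHP-1 that binds inhibitory motifs, had 986 and 901 at CD64 6 h, 1607 and 1531 at CD64 2 h, 2326 and 2174 at CD32 6 h, 1731 and 1814 at CD32 2 h, and 1999 and 2159 in the controls, lowest at CD64 6 h and highest at CD32 6 h. It fell 1.66-fold over the CD64 interval, and its interaction was -1.08 ± 0.13 (adjusted p = 0.000999). FCGR2B and PTPN6 were the called members among 27 tested genes of the list of Fc gamma receptors and proximal signalling, 1 in each direction, against 13.0% of all probe sets called.

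Of the 7525 probe sets, 980 (13.0%) passed the interaction test at an adjusted p under 0.05 in limma. There were 596 positive calls (7.92% of those tested) and 384 negative calls (5.10%), 528 calls exceeded a 2-fold and 100 a 4-fold difference of steps, and the median standard error was 0.39 log2. After quantile scaling the counts were 348 positive and 260 negative, and after loess scaling 355 positive and 318 negative, so that the share of positive calls was 60.8% as deposited, 57.2% after quantile and 52.7% after loess scaling. The same direction was called in all 3 scalings for 296 of the 596 positive and 196 of the 384 negative probe sets. When each of the 8 arrays was left out in turn, 213 positive and 201 negative calls passed every time. The fewest positive calls came without the second CD64 6 h array, which left 262 positive and 250 negative ones. Without a variance trend in limma there were 278 positive and 126 negative calls. The calls nearest the threshold had adjusted p-values of 0.0499, among them SMAD2 with an interaction of 0.74, and the first probe sets outside it had 0.0504, among them SF3B2 with -0.85.

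**Figure D1:**
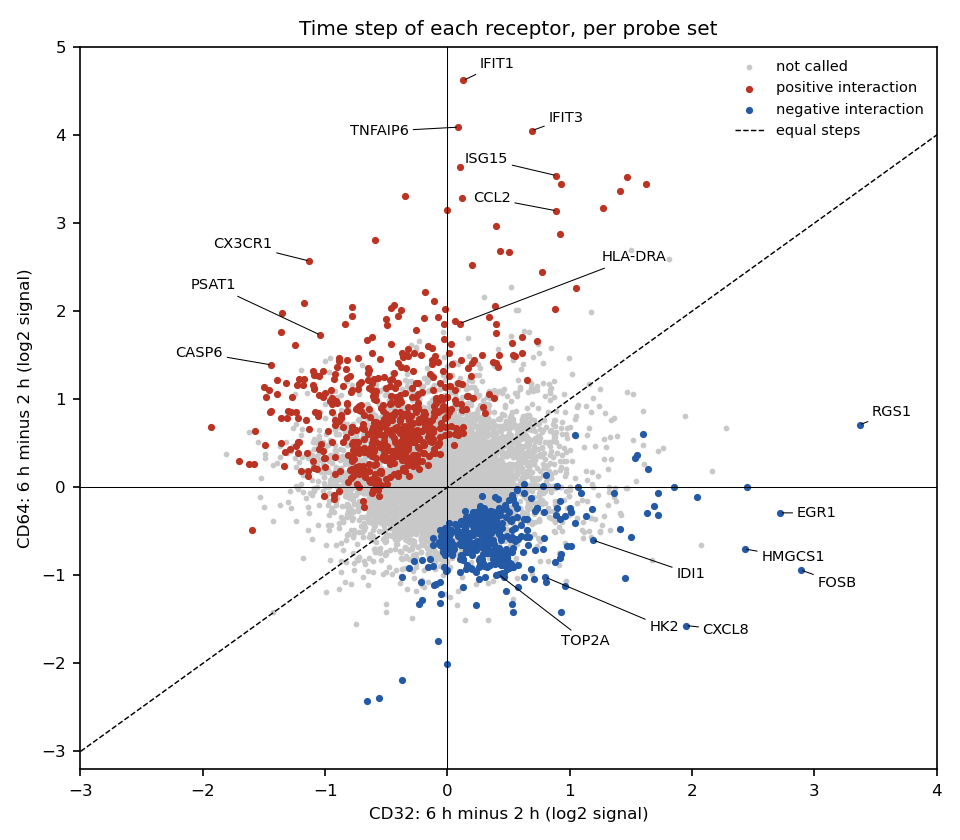
The CD64 step (6 h minus 2 h, log2 signal) of each tested probe set is plotted against its CD32 step. Probe sets of XIST and of genes on chromosome Y are left out. Positive interaction calls are red, negative calls blue and uncalled probe sets grey. The dashed line marks equal steps; the IFIT1 point lies highest at a CD64 step of 4.62, and the RGS1 point lies farthest right at a CD32 step of 3.37.

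The most frequent combination of called steps was a called CD64 step beside an uncalled CD32 step, and an uncalled step is not shown to be no change. Among the 596 positive calls, 326 (54.7%) had a called rise over the CD64 interval and no called CD32 step, a shape held by 7.35% of all probe sets tested. A fall over the CD32 interval with no called CD64 step made up 89 (14.9%), and 117 (19.6%) had neither step called. Both steps were called in opposite directions, CD64 up and CD32 down, in 50 (8.39%), and both rose in 14 (2.35%), with CD64 rising more. Among the 384 negative calls, 233 (60.7%) had a called fall over the CD64 interval alone, 51 (13.3%) a called CD32 rise alone, 50 (13.0%) neither, and 47 (12.2%) a CD64 fall with a CD32 rise. The remaining 3 negative calls had 2 probe sets that rose in both and 1 that fell in both. In the same fit 1149 probe sets (15.3%) were called for the CD64 step, with 650 up (8.64%) and 499 down (6.63%), and 393 (5.22%) for the CD32 step, with 179 up (2.38%) and 214 down (2.84%). With steps sorted by a 1.5-fold difference in place of a call, a CD64 rise alone made up 40.9% of positive and a CD64 fall alone 42.4% of negative calls. Members were chosen by the difference of these steps, so the shape counts are a description. A CD64 fall alone was also the most frequent negative shape after quantile scaling, at 50.8%, and after loess scaling, at 46.2%. Among the 296 positive calls held in all scalings, 170 (57.4%) were a CD64 rise alone and 50 (16.9%) had opposite steps.

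**Figure D2:**
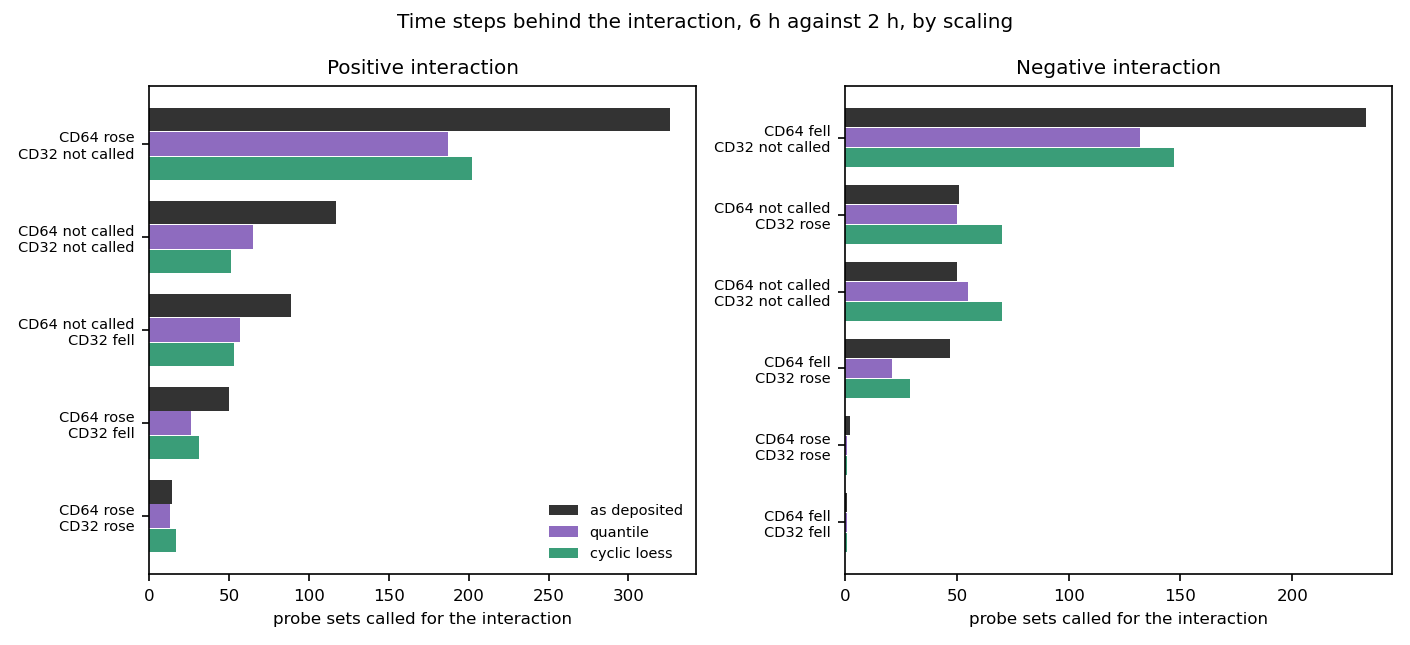
Bars give the number of probe sets called for the interaction in each combination of time steps, positive calls on the left and negative calls on the right, in the deposited scaling (black), after quantile scaling (purple) and after cyclic loess scaling (green). The longest bars are the 326 positive calls with a CD64 rise alone and the 233 negative calls with a CD64 fall alone, both in the deposited scaling.

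Read as gaps between receptors, the same calls opened, closed or crossed. Across all probe sets 1440 (19.1%) differed between CD64 and CD32 at 6 h, 803 higher (10.7%) and 637 lower (8.47%) with CD64. At 2 h 1367 (18.2%) differed, 557 higher (7.40%) and 810 lower (10.8%) with CD64. Of the 596 positive calls, 220 (36.9%) were higher with CD64 than with CD32 only at 6 h, 212 (35.6%) were lower with CD64 only at 2 h, and 96 (16.1%) crossed, being higher with CD64 at 6 h and lower at 2 h. Of the 384 negative calls, 169 (44.0%) were lower with CD64 only at 6 h, 120 (31.2%) were higher with CD64 only at 2 h, and 49 (12.8%) crossed. A group was counted as apart where its mean lay farther from the mean of the other 3 than 2 times their range. Among positive calls CD64 2 h stood below in 123 (20.6%, against 7.26% of all probe sets), CD32 6 h below in 49 (8.22%, against 5.25%) and CD64 6 h above in 35 (5.87%, against 4.2%). Among negative calls CD64 2 h stood above in 62 (16.1%, against 4.11%), CD64 6 h below in 56 (14.6%, against 2.64%) and CD32 6 h above in 27 (7.03%, against 4.82%). These counts depend on the limit: no group was apart in 63.9% of positive and 61.7% of negative calls, against 14.3% and 6.51% at 1 times the range and 81.9% and 82.8% at 3 times. At 1 times the range CD64 6 h below (39.6% of negative calls) was more frequent than CD64 2 h above (31.2%), the reverse of the order at 2 and 3 times. The shares also depend on the scaling. After quantile scaling CD64 6 h below, at 2 times the range, made up 8.08% of negative calls, against 2.75% of all probe sets. After loess scaling it made up 5.97%, against 2.84%. CD32 6 h above was more frequent in both, at 10.8% (against 5.73%) and 10.1% (against 5.91%). Among positive calls CD64 6 h above made up 8.33% after quantile (against 3.52%) and 7.89% after loess scaling (against 3.53%). CD32 6 h below was then less frequent, at 8.05% (against 5.08%) and 7.32% (against 4.5%). Positive calls lower with CD64 only at 2 h made up 37.6% after quantile and 40.6% after loess scaling. Those higher with CD64 only at 6 h made up 36.2% and 33.5%, the reverse of the deposited order. Set against the control, which the interaction does not use, the positive calls had a median log2 difference of 0.61 at CD64 6 h, -0.12 at CD64 2 h, 0.02 at CD32 6 h and 0.47 at CD32 2 h. The negative calls had -0.48 at CD64 6 h, 0.15 at CD64 2 h, 0.15 at CD32 6 h and -0.16 at CD32 2 h. Over all probe sets the same medians were -0.02, -0.13, -0.08 and -0.02, in the same order of groups. The choice of the calls fixes the sign of CD64 6 h plus CD32 2 h minus CD64 2 h minus CD32 6 h, so the order of these medians is a description.

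Interferon-stimulated genes were positive in all but 1 of their calls. Of 49 tested members 24 had a positive and 1 a negative interaction (51.0% called, against 13.0% of all probe sets), and the median of the list was 0.61 log2 above that of all 6657 genes tested. Here 20 of the 24 were called in all 3 scalings and 16 without each of the 8 arrays. All 24 rose over the CD64 interval, 16 of them with no called CD32 step, and 8 rose over both. Over the whole list 33 of 49 rose over the CD64 interval and 14 over the CD32 interval, 30 were lower with CD64 than with CD32 at 2 h, and at 6 h 13 were higher and 7 lower with CD64.

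IFIT1, an interferon-induced protein that binds foreign RNA, had the largest positive interaction of the 7525 probe sets. Its signals were 4416 and 3934 at CD64 6 h, 147 and 196 at CD64 2 h, 459 and 546 at CD32 6 h, 499.9 and 417 at CD32 2 h, and 264 and 214 in the controls. Both CD64 6 h arrays were above all others and both CD64 2 h arrays below all others. IFIT1 rose 24.6-fold at CD64 6 h against CD64 2 h (adjusted p = 6.59e-07), its CD32 step was 0.13 ± 0.17 log2 and not called, and the interaction was 4.49 ± 0.24 (adjusted p = 2.81e-05). CD64 was therefore 8.33-fold higher than CD32 at 6 h and 2.69-fold lower at 2 h. IFIT3, a partner of IFIT1, had 2645 and 3918 at CD64 6 h, 172 and 218 at CD64 2 h, 682 and 838 at CD32 6 h, 519.6 and 421 at CD32 2 h, and 161 and 184 in the controls, again with CD64 6 h highest and CD64 2 h lowest among the cross-linked groups. Its interaction was 3.36 ± 0.30 (adjusted p = 0.000292).

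The 200 bases before the start of IFIT1, IFIT3 and TNFSF10, a positive gene described further below, are printed. They are examples with a match to the interferon-stimulated response element (ISRE), the element through which type I interferon acts on such genes. The sequences are from RefSeq (GRCh38.p14), 5′ to 3′ on the strand of the gene, and capitals mark every match to the ISRE (a pair of GAAA runs with 2 free bases between them) or the TATA letters TATAAA on either strand. IFIT1 lies at chr10:89392423-89392622, plus strand, IFIT3 at chr10:89327797-89327996, plus strand, and TNFSF10 at chr3:172523431-172523630, minus strand.
IFIT1: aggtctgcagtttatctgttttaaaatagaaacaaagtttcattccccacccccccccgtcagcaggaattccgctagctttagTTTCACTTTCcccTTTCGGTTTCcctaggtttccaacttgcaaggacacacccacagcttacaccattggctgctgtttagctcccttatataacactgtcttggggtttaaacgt
IFIT3: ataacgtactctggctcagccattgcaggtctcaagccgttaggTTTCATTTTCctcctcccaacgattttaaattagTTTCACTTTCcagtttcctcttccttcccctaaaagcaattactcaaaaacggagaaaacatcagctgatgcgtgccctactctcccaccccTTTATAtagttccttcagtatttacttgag
TNFSF10: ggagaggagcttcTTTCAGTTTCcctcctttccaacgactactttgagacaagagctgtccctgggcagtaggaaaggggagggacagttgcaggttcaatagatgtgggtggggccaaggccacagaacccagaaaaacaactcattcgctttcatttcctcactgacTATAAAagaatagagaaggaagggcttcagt
The IFIT1 stretch held 2 ISRE matches that began 116 and 103 bases before the start, IFIT3 held 2 at 156 and 122 bases, and TNFSF10 held 1 at 187 bases. Of the stretches searched but not printed, ISG15 held 2 overlapping ISRE matches and RIGI held none. Over the 250 bases before the start, 6.58% of the 441 promoters of positively called genes held an ISRE match, against 3.73% of the 268 of negatively called genes, 2.9% of the 5421 of all genes tested and 3.07% of all 27305 promoters in the table. Within the list itself the match did not set called genes apart: 12 of 19 positively called members and 9 of 19 uncalled members with a promoter held one. A match is a description of letters and no evidence of binding.

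RIGI, a sensor of viral RNA in the cytosol, had 1143 and 1046 at CD64 6 h, 97.2 and 79.1 at CD64 2 h, 238 and 197 at CD32 6 h, 136 and 299.7 at CD32 2 h, and 208 and 134 in the controls. The CD64 6 h arrays were above all others by more than 3-fold, while the CD32 2 h arrays lay apart from each other. Its interaction was 3.54 ± 0.49 (adjusted p = 0.00194). ISG15, a ubiquitin-like protein attached to other proteins after interferon, rose over both intervals, 11.6-fold with CD64 and 1.85-fold with CD32. Its signals were 7342 and 9241 at CD64 6 h, 654 and 766 at CD64 2 h, 3889 and 3975 at CD32 6 h, 1937 and 2326 at CD32 2 h, and 521 and 806 in the controls, so the CD64 2 h arrays overlapped with the controls and all other cross-linked arrays were above them. The interaction was 2.65 ± 0.19 (adjusted p = 0.000126). XAF1, an antagonist of inhibitor of apoptosis proteins, had 505 and 528 at CD64 6 h, 106 and 139 at CD64 2 h, 148 and 321 at CD32 6 h, 551 and 435 at CD32 2 h, and 149.8 and 198 in the controls. CD64 6 h and CD32 2 h were high, CD64 2 h was low, and the CD32 6 h arrays lay apart from each other. Its interaction was 3.26 ± 0.48 (adjusted p = 0.0027). PLSCR1, a scramblase induced by interferon, had 2716 and 2733 at CD64 6 h, 404 and 450.1 at CD64 2 h, 2304 and 2238 at CD32 6 h, 1647 and 1734 at CD32 2 h, and 372 and 447 in the controls, and CD64 2 h was the cross-linked group that lay with the controls. Both of its steps were called upward, 2.68 log2 with CD64 and 0.43 with CD32, and the interaction was 2.25 ± 0.13 (adjusted p = 3.66e-05).

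The transcription factors of the pathway were split. IRF7, a driver of type I interferon genes, and IRF9, which forms the complex that binds the ISRE, had positive interactions of 1.11 ± 0.20 and 1.20 ± 0.23. IRF1, the factor that interferon gamma induces early, was the single negative member, at -1.24 ± 0.24 (adjusted p = 0.00926), with 339 and 341 at CD64 6 h, 353 and 456 at CD64 2 h, 728 and 797 at CD32 6 h, 410.3 and 354 at CD32 2 h, and 826 and 815 in the controls. The controls were above all 8 cross-linked arrays and CD32 6 h lay nearest to them. IRF1 rose over the CD32 interval and was lower with CD64 than with CD32 at 6 h. The oligoadenylate synthetases OAS1, OAS2, OAS3 and OASL, which activate an RNA-degrading enzyme, were all called positive, between 0.93 and 2.51, and OAS2 was not called in all 3 scalings.

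**Figure D3:**
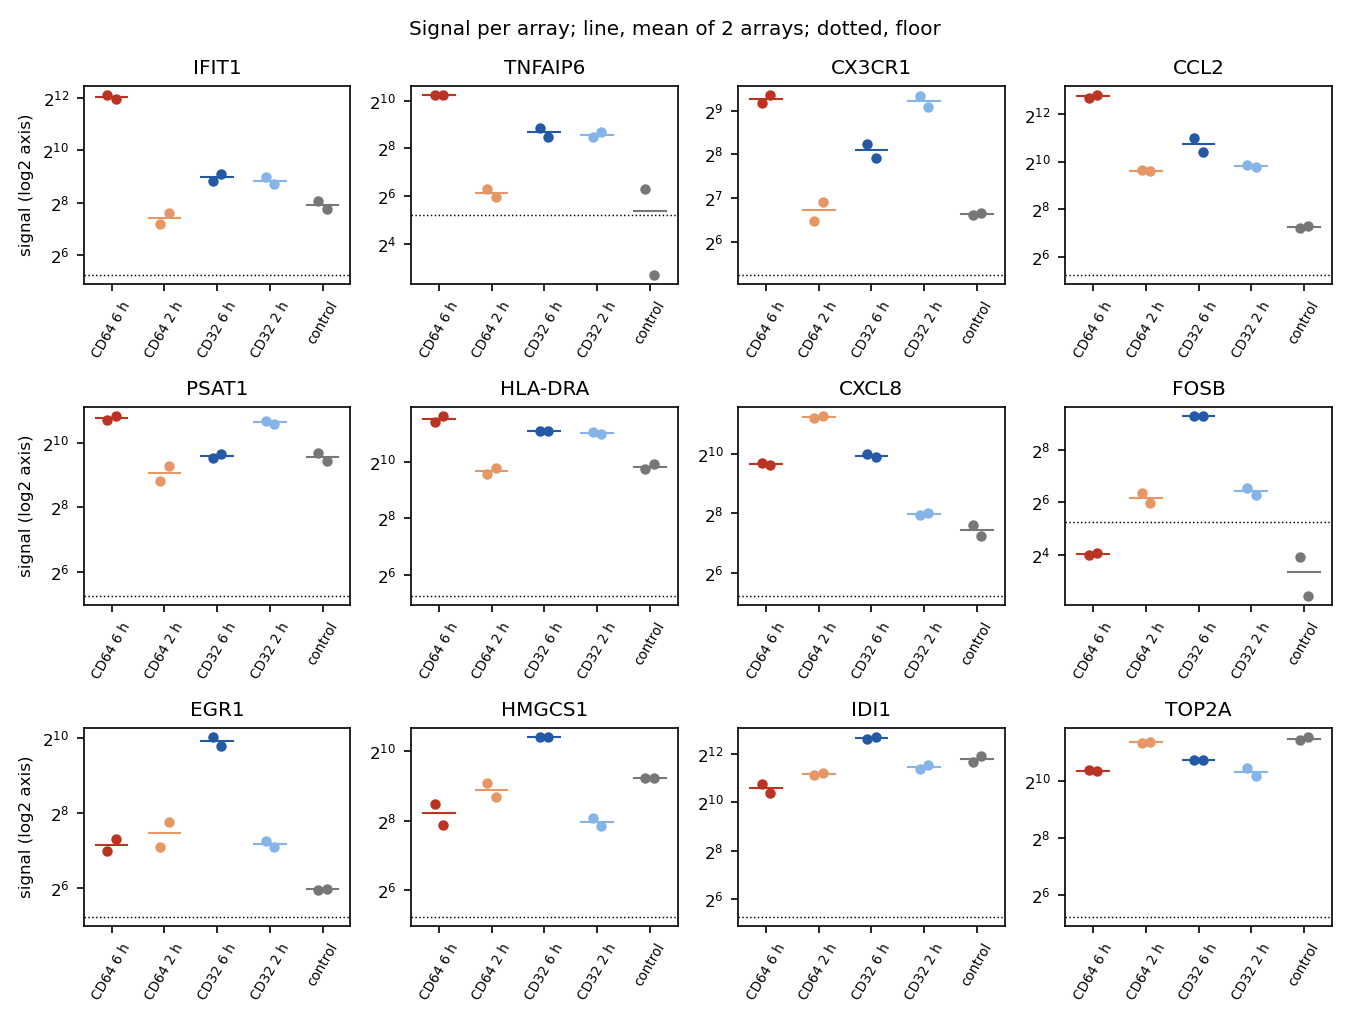
Each panel shows the signal of 1 gene on every array (log2 axis), with CD64 6 h in red, CD64 2 h in orange, CD32 6 h in dark blue, CD32 2 h in light blue and control in grey; lines are means of 2 arrays and the dotted line is the floor of 37.5. IFIT1 stands at 4416 and 3934 at CD64 6 h, CXCL8 at 2347 and 2456 at CD64 2 h, and EGR1 at 1038 and 878 at CD32 6 h, each above the other groups of its panel.

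Cytokines and chemokines went both ways. Of 25 tested members 5 were positive and 2 negative, and all 7 were called in each scaling. CCL2, a chemokine that draws monocytes, had 6684 and 7226 at CD64 6 h, 802 and 779.5 at CD64 2 h, 2040.0 and 1387 at CD32 6 h, 936 and 877 at CD32 2 h, and 148 and 156 in the controls. CD64 6 h was above every other array, and all cross-linked arrays were above the controls. CCL2 rose over both intervals, 8.79-fold with CD64 and 1.86-fold with CD32, an interaction of 2.24 ± 0.22 (adjusted p = 0.000468). The related chemokines CCL7 and CCL4 had interactions of 2.40 ± 0.50 and 1.90 ± 0.37, and neither was called without each of the 8 arrays in turn.

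TNFSF10, the death receptor ligand TRAIL, had 2272 and 2388 at CD64 6 h, 249 and 232 at CD64 2 h, 896 and 846 at CD32 6 h, 805 and 793 at CD32 2 h, and 278 and 307 in the controls. CD64 6 h was highest, both CD32 groups were intermediate and CD64 2 h lay with the controls. The interaction was 3.15 ± 0.15 (adjusted p = 1.19e-05). IL1RN, the natural antagonist of the interleukin-1 receptor, had the same order of groups, with 2662 and 3231 at CD64 6 h, 305 and 359 at CD64 2 h, 1209.8 and 1028 at CD32 6 h, 1238 and 1007 at CD32 2 h, and 302 and 277 in the controls, and an interaction of 3.15 ± 0.21 (adjusted p = 0.00011). Its CD32 step was 0.00 ± 0.15.

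CXCL8, the neutrophil attractant interleukin-8, moved in opposite directions in the 2 arms. Its signals were 833 and 786 at CD64 6 h, 2347 and 2456 at CD64 2 h, 1013 and 952 at CD32 6 h, 247 and 262 at CD32 2 h, and 198 and 151 in the controls. CD64 2 h was highest, both 6 h groups lay in the middle, and CD32 2 h was above the controls but below all other cross-linked arrays. CXCL8 fell 2.97-fold over the CD64 interval (adjusted p = 3.23e-05) and rose 3.86-fold over the CD32 interval (adjusted p = 3.63e-05). The interaction of -3.52 ± 0.15 had the smallest adjusted p of the named genes, 7.73e-06. At 2 h it was 9.44-fold higher with CD64 than with CD32, and at 6 h the difference was -0.28 ± 0.10 log2 and not called. CXCL2, a chemokine for the same receptor, had 255 and 146 at CD64 6 h, 437 and 355 at CD64 2 h, 150.5 and 171 at CD32 6 h, 52.1 and 65.8 at CD32 2 h, and 19.3 and 58.3 in the controls and an interaction of -2.49 ± 0.49 (adjusted p = 0.0102), with the same highest group. Only its CD32 step was called.

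TNFAIP6 and PTX3, which encode secreted proteins that organise hyaluronan matrix, were both positive. TNFAIP6 had 1196 and 1202 at CD64 6 h, 79.8 and 62.0 at CD64 2 h, 466 and 355 at CD32 6 h, 351 and 413 at CD32 2 h, and 78.1 and 6.5 in the controls. CD64 6 h was above all others and CD64 2 h below both CD32 groups. It rose 17-fold over the CD64 interval and the interaction was 4.0 ± 0.30 (adjusted p = 0.000126). PTX3 had 848 and 781 at CD64 6 h, 277 and 237 at CD64 2 h, 217 and 242 at CD32 6 h, 391 and 336 at CD32 2 h, and 214 and 209 in the controls, with CD64 6 h above all others, and an interaction of 2.32 ± 0.25 (adjusted p = 0.000684). Among the 23 tested NF-kappaB targets and feedback genes 4 were positive (TNFAIP6, PTX3, NFKB1 and BIRC2) and 2 negative (IER3 and BCL2A1), a share of 26.1% called against 13.0% of all probe sets. NFKB1 was not called in all 3 scalings nor without each of the 8 arrays.

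TNFAIP6 and CXCL8 moved in opposite directions, and their upstream stretches are printed with those of EGR1 and CXCL2. They are examples that hold a match to the letters named below and do not stand for all strong genes. Capitals mark matches to AP-1 (TGANTCA), to TATA, to the NF-kappaB consensus and to the serum response element, on either strand. TNFAIP6 lies at chr2:151357392-151357591, plus strand, CXCL8 at chr4:73740369-73740568, plus strand, CXCL2 at chr4:74099196-74099395, minus strand and EGR1 at chr5:138465279-138465478, plus strand.
TNFAIP6: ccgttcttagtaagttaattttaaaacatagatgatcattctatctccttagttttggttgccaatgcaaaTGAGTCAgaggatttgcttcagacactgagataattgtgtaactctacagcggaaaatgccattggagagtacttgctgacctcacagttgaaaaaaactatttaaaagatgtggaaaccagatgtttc
CXCL8: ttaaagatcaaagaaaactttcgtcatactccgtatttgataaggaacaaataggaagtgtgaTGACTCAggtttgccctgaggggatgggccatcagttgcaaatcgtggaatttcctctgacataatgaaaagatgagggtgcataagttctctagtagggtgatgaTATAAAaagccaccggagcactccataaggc
CXCL2: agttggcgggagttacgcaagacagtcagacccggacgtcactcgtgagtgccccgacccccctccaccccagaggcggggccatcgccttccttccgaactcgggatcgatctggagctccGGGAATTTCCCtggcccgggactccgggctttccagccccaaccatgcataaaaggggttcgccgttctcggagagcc
EGR1: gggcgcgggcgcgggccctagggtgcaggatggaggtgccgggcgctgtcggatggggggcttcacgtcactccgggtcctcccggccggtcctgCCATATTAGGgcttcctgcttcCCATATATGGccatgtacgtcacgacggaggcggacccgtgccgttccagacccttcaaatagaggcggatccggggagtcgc
The AP-1 match of TNFAIP6 began 129 and that of CXCL8 137 bases before the start, so both a strong positive and a strong negative gene held one. CXCL2 held overlapping NF-kappaB matches from 78 bases, and EGR1 held 2 serum response elements at 105 and 83 bases. In the same 200 bases FOSB and HMGCS1 held TATA letters alone. CX3CR1, IL1RN, PSAT1 and IDI1 held none of the letters searched for. AP-1 letters occurred in 8.16% of positive, 3.36% of negative, 5.35% of all tested and 6.6% of all promoters. NF-kappaB letters occurred in 14.1% of positive, 14.2% of negative, 12.1% of all tested and 9.57% of all promoters. Serum response elements occurred in 2.04% of positive, 2.99% of negative, 1.59% of all tested and 1.14% of all promoters.

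Immediate early transcription factors, which the MAP kinase pathway switches on without new protein synthesis, were negative in every call as deposited. Of 27 tested members 10 were negative and none positive (37.0% called, against 13.0% of all probe sets). The list median was -0.70 log2 relative to all genes, and all 10 were called in each scaling. The CD32 arm carried more of this group: 9 members rose and 1 fell over the CD32 interval, while 4 rose and 4 fell over the CD64 interval. At 6 h 13 members were lower and 2 higher with CD64, and at 2 h 3 were higher and 3 lower.

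EGR1, a zinc finger factor, had 127 and 159 at CD64 6 h, 137 and 218 at CD64 2 h, 1038 and 878 at CD32 6 h, 153 and 136 at CD32 2 h, and 62.4 and 63.4 in the controls. CD32 6 h was above all other arrays and the other cross-linked groups overlapped. EGR1 rose 6.61-fold over the CD32 interval (adjusted p = 0.00114), its CD64 step was -0.29 ± 0.28, and the interaction was -3.01 ± 0.39 (adjusted p = 0.00147). FOSB, a partner of JUN proteins in AP-1, had 15.9 and 16.8 at CD64 6 h, 82.0 and 63.0 at CD64 2 h, 631 and 628 at CD32 6 h, 93.8 and 77.2 at CD32 2 h, and 15.0 and 5.3 in the controls. CD32 6 h was again highest, and both CD64 6 h arrays lay under the floor, so FOSB was at least 16.8-fold lower with CD64 than with CD32 at 6 h. Its interaction with those arrays at the floor was -3.83 ± 0.47 (adjusted p = 0.00113).

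FOS, the founding AP-1 partner, fell over the CD64 interval and rose over the CD32 interval, with 150.5 and 170.2 at CD64 6 h, 293 and 251 at CD64 2 h, 475 and 395 at CD32 6 h, and 209.6 and 247 at CD32 2 h and an interaction of -1.69 ± 0.32 (adjusted p = 0.00866). EGR3 had 173 and 150.4 at CD64 6 h, 234 and 171 at CD64 2 h, 371 and 417 at CD32 6 h, 126 and 114 at CD32 2 h, and 99.4 and 57.3 in the controls and an interaction of -2.03 ± 0.38 (adjusted p = 0.00869), with CD32 6 h highest. JUND, NR4A2, MAFF, SRF, BHLHE40 and FOSL1 completed the 10, between -1.88 and -0.64. FOSL1, with 1 CD64 6 h array set to the floor, was not called when any 1 of the 8 arrays was left out.

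Of 15 tested MAP kinase phosphatases and feedback regulators 5 were negative, 1 was positive and 9 were not called, and 2 of the 5 were called without each of the 8 arrays. DUSP1, a phosphatase that inactivates MAP kinases, had 98.3 and 111 at CD64 6 h, 211 and 246 at CD64 2 h, 347 and 264 at CD32 6 h, 166 and 147 at CD32 2 h, and 354 and 312 in the controls. CD64 6 h was the lowest group and CD32 6 h the highest cross-linked one, and the controls overlapped with the CD32 6 h arrays. DUSP1 fell 2.18-fold over the CD64 interval, and its interaction was -2.08 ± 0.39 (adjusted p = 0.00869). RGS1, which shortens G protein signalling, had 138 and 94.0 at CD64 6 h, 47.0 and 104 at CD64 2 h, 496 and 975 at CD32 6 h, 62.8 and 72.1 at CD32 2 h, and 116 and 67.4 in the controls. The CD32 6 h arrays were above all others but lay apart from each other, the interaction was -2.66 ± 0.67 (adjusted p = 0.0295), and the call held in 2 of the 8 fits with 1 array left out. DUSP2 (under the floor at CD64 6 h and CD32 2 h), SPRY2 and RGS2 were the other negative members, and DUSP11, an RNA phosphatase, the positive one.

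The early response genes IER3, PPP1R15A and MCL1 were negative as well. IER3, a stress-induced survival gene, had 452 and 466 at CD64 6 h, 416 and 378 at CD64 2 h, 1519.8 and 1667 at CD32 6 h, 523 and 498 at CD32 2 h, and 179 and 138 in the controls, with CD32 6 h above all others. It rose 3.12-fold over the CD32 interval only, an interaction of -1.43 ± 0.17 (adjusted p = 0.00099). PPP1R15A, which encodes GADD34 and restores translation after stress, had 437 and 432 at CD64 6 h, 514 and 549.7 at CD64 2 h, 2204 and 2185 at CD32 6 h, 647 and 781 at CD32 2 h, and 675 and 613 in the controls and an interaction of -1.92 ± 0.17 (adjusted p = 0.000292). MCL1, a short-lived survival protein of the BCL2 family, had 1895 and 2461 at CD64 6 h, 3888 and 5080.1 at CD64 2 h, 3864 and 3512 at CD32 6 h, 2613 and 1946 at CD32 2 h, and 1682 and 1483 in the controls, high at CD64 2 h and CD32 6 h, and an interaction of -1.75 ± 0.25. Its relative BCL2A1 had 1882 and 1775 at CD64 6 h, 2389 and 1981 at CD64 2 h, 2898 and 3161 at CD32 6 h, 1421 and 1264 at CD32 2 h, and 2389.7 and 2669 in the controls and an interaction of -1.43 ± 0.16. Of 27 tested apoptosis regulators these 2 were negative, and 7 were positive, of which 2 were called in all scalings. The share called was 33.3%, against 13.0% of all probe sets.

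Of 18 tested genes of cholesterol synthesis and uptake 8 were negative, 1, PMVK, was positive and 9 were not called. Among the 8, 4 rose over the CD32 interval alone, 2 had opposite steps, 1 fell over the CD64 interval alone and 1 had neither step called, and the list median was -0.76 log2 relative to all genes. All but FDPS among the 8 were called in each scaling, and PMVK was not. Over the CD32 interval 7 of 18 rose and none fell; over the CD64 interval 2 rose and 3 fell; at 6 h 10 were lower with CD64 and none higher. HMGCS1, the enzyme that makes the HMG-CoA of the pathway, had 359 and 233 at CD64 6 h, 536 and 412 at CD64 2 h, 1347 and 1350.0 at CD32 6 h, 270.0 and 231 at CD32 2 h, and 602 and 592 in the controls. CD32 6 h was above all other arrays, CD64 6 h overlapped with CD32 2 h, and the controls lay between. HMGCS1 rose 5.4-fold over the CD32 interval (adjusted p = 0.000661) and its CD64 step was -0.70 ± 0.22, not called. The interaction was -3.14 ± 0.31 (adjusted p = 0.000484).

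IDI1, which isomerises the isoprenoid building block, fell 1.51-fold with CD64 and rose 2.28-fold with CD32. Its signals were 1756 and 1356 at CD64 6 h, 2283 and 2387 at CD64 2 h, 6314 and 6738 at CD32 6 h, 2703 and 3033 at CD32 2 h, and 3301 and 3886 in the controls: CD64 6 h was the lowest group and CD32 6 h the highest. The interaction was -1.78 ± 0.17 (adjusted p = 0.000468). SQLE, which oxidises squalene, had 1971 and 1907 at CD64 6 h, 2386 and 2318 at CD64 2 h, 6109.5 and 5967 at CD32 6 h, 2881 and 3120.0 at CD32 2 h, and 3404 and 3114 in the controls and an interaction of -1.29 ± 0.11 (adjusted p = 0.000292), with opposite called steps. INSIG1, which retains the sterol sensor in the endoplasmic reticulum and is itself a sterol-repressed gene, had an interaction of -1.21 ± 0.17 (adjusted p = 0.00215). The upstream 250 bases of the 7 called negative members with a promoter held no match to TCACCCCAC, the exact letters searched for as sterol regulatory element. These letters were found in 0.348% of all promoters. A set of 7 would thus rarely hold them, so their absence says nothing about regulation by sterols.

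Of 30 tested genes of amino acid stress and the unfolded protein response 15 were positive, 1, PPP1R15A, was negative and 14 were not called. The share called was 53.3%, against 13.0% of all probe sets. The list median was 0.35 log2 above all genes, and 12 of the 15 were called in all scalings. Among the 15, 7 rose with CD64 alone, 5 rose with CD64 and fell with CD32, 2 fell with CD32 alone and 1 had neither step called. At 2 h 16 of the 30 were lower and 1 higher with CD64 than with CD32, and at 6 h 8 were higher and 5 lower. PSAT1, an enzyme of serine synthesis, had 1681 and 1839 at CD64 6 h, 454 and 622 at CD64 2 h, 750.5 and 805 at CD32 6 h, 1666 and 1533 at CD32 2 h, and 831 and 689.5 in the controls. CD64 6 h and CD32 2 h were high and did not overlap with the low groups, CD64 2 h and CD32 6 h, nor with the controls. PSAT1 rose 3.31-fold with CD64 and fell 2.06-fold with CD32, an interaction of 2.77 ± 0.21 (adjusted p = 0.000126).

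SLC7A11, the cystine importer, had the same pair of high groups, with 916 and 857 at CD64 6 h, 446 and 510.2 at CD64 2 h, 540.0 and 498 at CD32 6 h, 785 and 831 at CD32 2 h, and 174 and 171 in the controls, all above the controls. Its interaction was 1.53 ± 0.17 (adjusted p = 0.000856). TRIB3, a pseudokinase induced by the factor ATF4, had an interaction of 1.77 ± 0.15 (adjusted p = 0.000292), and the serine and cysteine enzymes PHGDH, PSPH and CTH had 1.15, 1.47 and 1.42. Of the transfer RNA synthetases AARS1, CARS1, SARS1 and GARS1, all positive, AARS1 was the strongest at 1.23 ± 0.14. ASNS, asparagine synthetase, reached 1.91 ± 0.50 (adjusted p = 0.0343) but was not called after quantile or loess scaling. ATF4 element letters (TGATGNAA) were found in 2.49% of positive, 1.49% of negative and 2.12% of all tested promoters.

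Macrophage and monocyte markers were positive where called as deposited. Of 34 tested 5 were positive and none negative, a share of 14.7% that is close to the 13.0% of all probe sets. After quantile scaling, and again after loess scaling, 3 were positive and 1 negative. CX3CR1, TREM1 and CCR1 were called in all scalings and CCR2 and C5AR1 were not. CX3CR1, the receptor for fractalkine, had 582 and 656 at CD64 6 h, 89.4 and 120.5 at CD64 2 h, 302 and 242 at CD32 6 h, 642 and 545 at CD32 2 h, and 98.1 and 100 in the controls. CD64 6 h and CD32 2 h were high, CD32 6 h was intermediate, and CD64 2 h overlapped with the controls. CX3CR1 rose 5.95-fold with CD64 (adjusted p = 0.000137) and fell 2.18-fold with CD32 (adjusted p = 0.0214), an interaction of 3.70 ± 0.31 (adjusted p = 0.000244). TREM1, an activating receptor that amplifies inflammation, had 494 and 393 at CD64 6 h, 38.4 and 103 at CD64 2 h, 237 and 159 at CD32 6 h, 252 and 342 at CD32 2 h, and 67.2 and 27.2 in the controls and an interaction of 3.40 ± 0.63 (adjusted p = 0.00835). FFAR2, a receptor for short-chain fatty acids, had 473 and 398 at CD64 6 h, 98.4 and 122 at CD64 2 h, 123 and 24.9 at CD32 6 h, 182 and 164 at CD32 2 h, and 80.3 and 59.1 in the controls and, with 1 CD32 6 h array set to the floor, an interaction of 3.33 ± 0.70. Its call was lost in 3 of the 8 fits with 1 array left out.

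MHC class II genes were positive where called. Of 14 tested members 4 were positive and none negative (28.6% called, against 13.0% of all probe sets). At 2 h 5 were lower with CD64 than with CD32, and HLA-DRA and HLA-DRB1 were called in all scalings. HLA-DRA, the shared chain of HLA-DR, had 2774 and 3196 at CD64 6 h, 756 and 895 at CD64 2 h, 2229.8 and 2233 at CD32 6 h, 2144 and 2035 at CD32 2 h, and 857 and 967 in the controls. CD64 2 h lay with the controls, and the other cross-linked arrays were more than 2-fold above them. HLA-DRA rose 3.62-fold with CD64, its CD32 step was 0.10 ± 0.11, and the interaction was 1.76 ± 0.15 (adjusted p = 0.000292). Of 6 tested genes of the phagocyte NADPH oxidase, both membrane subunits were positive (33.3% called, against 13.0% of all probe sets). CYBB, the catalytic one, had 1475 and 1285 at CD64 6 h, 392 and 333 at CD64 2 h, 1539 and 1139 at CD32 6 h, 1035 and 1054 at CD32 2 h, and 596 and 526 in the controls, lowest at CD64 2 h, and an interaction of 1.59 ± 0.22 (adjusted p = 0.00195). CYBA, its partner, had 1858 and 2057 at CD64 6 h, 847 and 1082 at CD64 2 h, 1292 and 1289.6 at CD32 6 h, 1305 and 1275 at CD32 2 h, and 1394 and 1606 in the controls, highest at CD64 6 h, and an interaction of 1.03 ± 0.17 (adjusted p = 0.0053). TXNIP, which binds thioredoxin and restrains glucose uptake, had 2749.5 and 2605 at CD64 6 h, 1039 and 1059 at CD64 2 h, 3033 and 2719 at CD32 6 h, 3708 and 3555 at CD32 2 h, and 537 and 487 in the controls, and CD64 2 h was again the lowest cross-linked group, above the controls. Its interaction was 1.69 ± 0.12 (adjusted p = 0.000126).

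VPS54 and CASP6 had opposite called steps. VPS54, a subunit of an endosome tethering complex, had 570.4 and 615 at CD64 6 h, 195 and 192 at CD64 2 h, 169 and 228 at CD32 6 h, 524 and 417 at CD32 2 h, and 208 and 163 in the controls. CD64 6 h and CD32 2 h were high, CD64 2 h and CD32 6 h lay with the controls, and the interaction was 2.86 ± 0.30 (adjusted p = 0.000595). CASP6, an executioner caspase, had 436 and 400.4 at CD64 6 h, 177 and 144 at CD64 2 h, 103 and 72.5 at CD32 6 h, 254 and 215 at CD32 2 h, and 112 and 165 in the controls and an interaction of 2.82 ± 0.40 (adjusted p = 0.00225). KMT5A, which methylates histone H4, was called for the fall of the CD32 arm alone, with 189.8 and 177 at CD64 6 h, 95.9 and 84.5 at CD64 2 h, 75.8 and 70 at CD32 6 h, 194 and 212 at CD32 2 h, and 183 and 150.4 in the controls, and had an interaction of 2.50 ± 0.44 (adjusted p = 0.00639). AKTIP, an adaptor of endosome transport, had neither step called, with 175 and 194 at CD64 6 h, 106 and 70.4 at CD64 2 h, 76.9 and 41.9 at CD32 6 h, 149.8 and 163 at CD32 2 h, and 51.8 and 72.8 in the controls. Its interaction was 2.56 ± 0.57, and the call held in 3 of the 8 fits with 1 array left out.

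Of 37 tested mitotic genes 12 were negative, none was positive and 25 were not called (32.4% called, against 13.0% of all probe sets), and the list median was -0.58 log2 relative to all genes; 6 of the 12 were called in all scalings. Over the CD64 interval 23 of 37 fell and none rose, over the CD32 interval 2 rose and none fell, and at 2 h 22 were higher and 1 lower with CD64 than with CD32. TOP2A, the topoisomerase that untangles chromosomes, had 1317 and 1314 at CD64 6 h, 2574 and 2644 at CD64 2 h, 1709.9 and 1679 at CD32 6 h, 1385 and 1149.7 at CD32 2 h, and 2731 and 2963 in the controls. CD64 2 h lay close to the controls, and the other 3 groups were below both. TOP2A fell 1.98-fold with CD64 and rose 1.34-fold with CD32, an interaction of -1.41 ± 0.14 (adjusted p = 0.000529). UBE2C, which helps to mark mitotic proteins for destruction, had 701 and 803 at CD64 6 h, 1335 and 1305 at CD64 2 h, 1166 and 1034 at CD32 6 h, 863 and 947 at CD32 2 h, and 1309 and 1296 in the controls and an interaction of -1.10 ± 0.16 (adjusted p = 0.0027). CCNG1, a p53-induced cyclin, had 2040.1 and 2031 at CD64 6 h, 5016 and 5102 at CD64 2 h, 2745 and 2651 at CD32 6 h, 2795 and 2816 at CD32 2 h, and 4189 and 4577 in the controls, also highest at CD64 2 h among the cross-linked groups, and an interaction of -1.26 ± 0.11 (adjusted p = 0.000263). Of 42 tested genes of DNA replication 2 were positive (CDC6 and CDC45) and 3 negative (RRM2, PCNA and TYMS), a share of 11.9% that is near the 13.0% of all probe sets, and CDC6 and PCNA were called in all scalings.

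Glycolysis and hypoxia genes were negative in 11 of 29 tested members and positive in none (37.9% called, against 13.0% of all probe sets). But 5 of the 11 were called in all scalings: HK2, SLC2A3, PKM, BNIP3 and NDRG1. HK2, which traps glucose in the cell, had 654 and 482 at CD64 6 h, 1271 and 1019 at CD64 2 h, 952 and 881 at CD32 6 h, 509.7 and 540.0 at CD32 2 h, and 2489 and 2081 in the controls. CD64 6 h and CD32 2 h were low and all cross-linked arrays were below the controls. HK2 fell 2.03-fold with CD64 and rose 1.75-fold with CD32, an interaction of -1.82 ± 0.23 (adjusted p = 0.00137). NDRG1, a hypoxia-induced gene, had 2286 and 2470.1 at CD64 6 h, 4781 and 5632 at CD64 2 h, 7130.1 and 6929 at CD32 6 h, 4816 and 4603 at CD32 2 h, and 6556 and 7185 in the controls, lowest at CD64 6 h, and an interaction of -1.70 ± 0.14 (adjusted p = 0.000234). SLC2A3, a glucose transporter, had 588 and 515 at CD64 6 h, 597 and 560.3 at CD64 2 h, 1509 and 1921 at CD32 6 h, 671 and 652 at CD32 2 h, and 1482 and 1759 in the controls. Only CD32 6 h reached the range of the controls, and the interaction was -1.43 ± 0.19 (adjusted p = 0.00179).

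Heat shock genes and chaperones split, with 5 positive and 9 negative of 24 tested, and 4 in each direction held in all scalings. The share called was 58.3%, against 13.0% of all probe sets. HSPA6, an inducible HSP70, had 101 and 162 at CD64 6 h, 569 and 603 at CD64 2 h, 150.2 and 140.1 at CD32 6 h, 160.4 and 220.4 at CD32 2 h, and 557 and 624 in the controls. CD64 2 h lay with the controls and the other groups were below, so that HSPA6 fell 4.58-fold with CD64 alone. Its interaction was -1.82 ± 0.42 (adjusted p = 0.0205), and the call held in 3 of the 8 fits with 1 array left out. HSPH1, an HSP70 exchange factor, had 1529.9 and 1283 at CD64 6 h, 3062 and 2435 at CD64 2 h, 1216 and 1358 at CD32 6 h, 1042 and 1383 at CD32 2 h, and 1334 and 1468 in the controls and an interaction of -1.06 ± 0.23. PPID, an HSP90 co-chaperone, was positive at 1.40 ± 0.20 (adjusted p = 0.00214).

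The thioredoxin system was split in the list of oxidative stress genes, where 5 of 27 tested members were positive and 4 negative. The share called was 33.3%, against 13.0% of all probe sets. All 5 positive and 3 of the 4 negative genes were called in all 3 scalings. TXN, the small redox protein itself, its reductase TXNRD1 and the mitochondrial peroxidase PRDX3 were negative at -0.98 ± 0.13, -0.54 ± 0.12 and -0.94 ± 0.12. TXNIP, which binds TXN, was positive as described, and SQSTM1, an autophagy receptor, reached 0.75 ± 0.14. TXN had 4396 and 4426 at CD64 6 h, 6784 and 6625 at CD64 2 h, 4722 and 5369.9 at CD32 6 h, 3779 and 4009 at CD32 2 h, and 4535 and 4679 in the controls. CD64 2 h was above all other arrays and CD32 2 h below them, and the interaction had an adjusted p of 0.0014. Of 30 tested proteasome genes 3 were positive and 1 negative, a share of 13.3% that is close to the 13.0% of all probe sets. The 3 positive calls held in all scalings and the negative one did not. PSMD11, a lid subunit of the regulatory particle, had 1332 and 1329 at CD64 6 h, 803 and 887 at CD64 2 h, 847 and 829 at CD32 6 h, 1238 and 1225 at CD32 2 h, and 814 and 1157 in the controls, and its interaction was 1.21 ± 0.14 (adjusted p = 0.000788) with both steps called in opposite directions.

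Of 32 tested G1 cyclins, CDK inhibitors and p53 targets 5 were positive and 1, CCNG1, was negative (18.8% called, against 13.0% of all probe sets), and CCND3, CDK4 and CCNG1 were called in all scalings. Of 24 tested matrix protease and remodelling genes 4 were positive, with TNFAIP6 and PTX3 the strongest, and PLAUR, the urokinase receptor, was negative at -0.45 ± 0.12. The share called was 20.8%, against 13.0% of all probe sets. Of the 4 positive ones 3 were called in all scalings. Of 34 tested lysosomal and proton pump genes 2 were positive as deposited, ATP6V0E1 at 1.03 ± 0.12 and PSAP, and none was negative. This share of 5.88% was below the 13.0% of all probe sets. PSAP was not called after quantile or loess scaling, where the list had 3 positive calls each and 1 and 2 negative ones. Of 24 tested genes of ribosome biogenesis NPM1 alone was called (4.17%), and of 10 tested histones 1 was positive and 2 were negative.

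**Figure D4:**
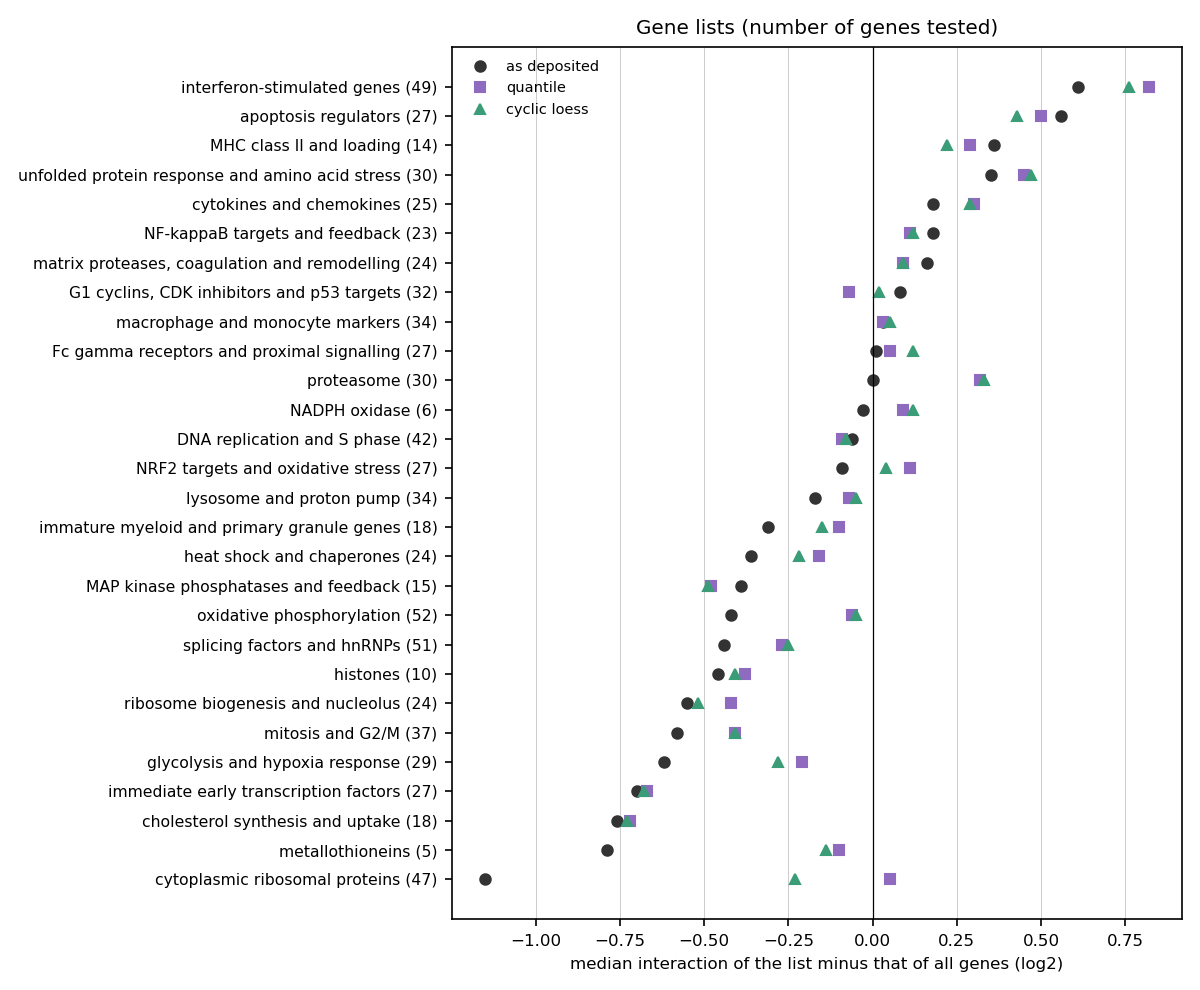
For 28 gene lists, with the number of tested genes in brackets, the median log2 interaction of the list minus that of all genes is shown in the deposited scaling (black circles), after quantile (purple squares) and after cyclic loess scaling (green triangles). Interferon-stimulated genes lie highest, at 0.61, 0.82 and 0.76, and the cytoplasmic ribosomal proteins move between -1.15 as deposited and 0.05 after quantile scaling.

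The brightest genes depended on the scaling. Among the 10% of probe sets with the highest mean signal the median interaction was -0.26 as deposited, with 53 positive and 235 negative calls; after quantile scaling there were 88 positive and 54 negative, and after loess scaling 99 and 67. Cytoplasmic ribosomal proteins had 38 negative calls among 47 tested and no positive one as deposited (80.9% called, against 13.0% of all probe sets). After quantile scaling 2 were negative and 1 positive, and after loess scaling 8 were negative. In all 3 scalings 2 of the 38 were called. RPL30, a protein of the large subunit, had 12635 and 12411 at CD64 6 h, 21721 and 25196 at CD64 2 h, 32966 and 27944 at CD32 6 h, 19696 and 22144 at CD32 2 h, and 20154 and 23010.2 in the controls, lowest at CD64 6 h and highest at CD32 6 h. Its interaction was -1.44 ± 0.18 as deposited (adjusted p = 0.00111), -0.22 after quantile and -0.55 after loess scaling, and only the deposited scaling passed. Its lowest and highest groups were also the lowest and highest in the maximum signal, the added bacterial transcripts and the actin ratio given above, whose part in these calls was not tested. Oxidative phosphorylation had 2 positive and 9 negative calls among 52 tested (21.2%, against 13.0% of all probe sets). Of these, 1 in each direction was called in all scalings. Of 5 tested metallothionein genes 3 were negative and 1, the regulator MTF1, was positive as deposited but not in all 3 scalings. The share called as deposited was 80.0%, against 13.0% of all probe sets. Of 18 tested granule genes 2 were negative, a share of 11.1% that is near the 13.0% of all probe sets. The metallothioneins MT2A, MT1H and MT1X, the granule genes CTSG and SRGN, and NPM1 were negative as deposited and not called after quantile scaling. MT2A and CTSG had a positive value after quantile scaling (0.29 and 0.04), as had the histone H2AZ1 in both other scalings (0.06 and 0.07). Of 51 tested splicing factors 2 were positive and 11 negative (25.5% called, against 13.0% of all probe sets). Both positive and 7 of the 11 negative ones were called in all 3 scalings. SNRPG, a shared subunit of spliceosomal particles, had 5918 and 5862 at CD64 6 h, 8775 and 8555 at CD64 2 h, 7962 and 7794 at CD32 6 h, 5569 and 5329.5 at CD32 2 h, and 5674 and 6670.4 in the controls and interactions of -1.09 ± 0.11 as deposited, -0.60 after quantile and -0.62 after loess scaling, called in each.

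**Figure D5:**
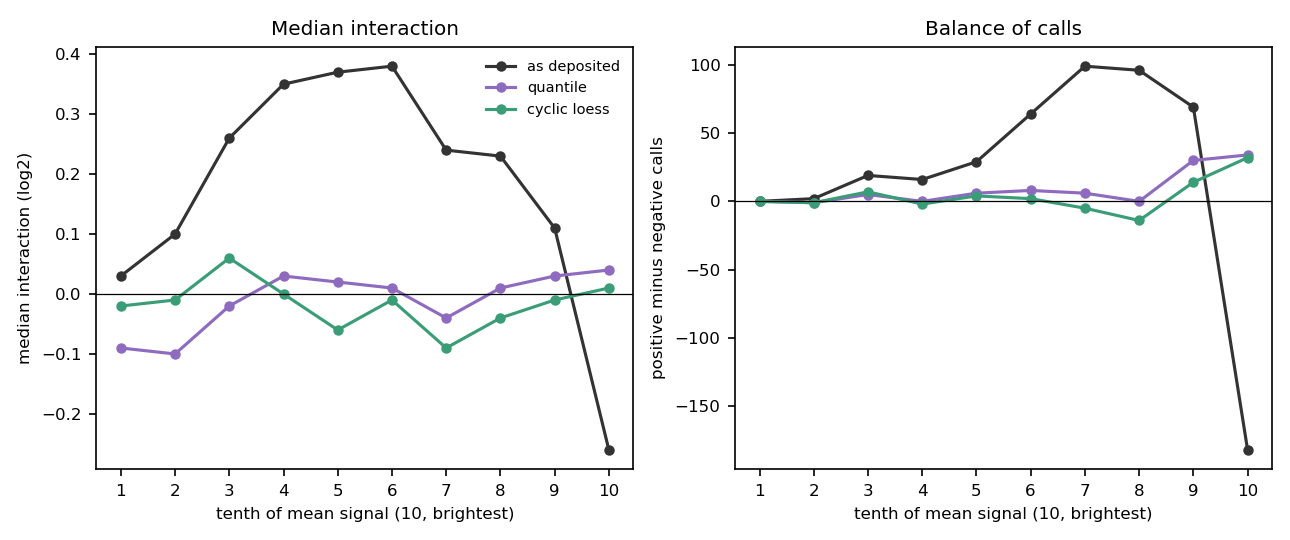
Probe sets are sorted by mean signal into 10 bins of equal number on the horizontal axis, and the left panel gives the median log2 interaction, the right panel the positive minus the negative calls, in 3 scalings. As deposited the brightest bin has a median of -0.26 with 53 positive and 235 negative calls, while after quantile scaling its median is 0.04.

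Markers of other cell types were called in 3 cases. Among 35 monocyte and macrophage markers on the array 25 were above the floor on all 8 cross-linked arrays and none was under it on all 8. No epithelial or fibroblast marker (11 tested) and no B cell marker (8 tested) was called. Of 15 T cell markers on the array 4 were above the floor on all 8 arrays and CD7 was above it on none. The called genes were 1 of 12 tested T cell markers, 1 of 9 natural killer cell markers and 1 of 10 erythroid and platelet markers: CD4, which monocytes also carry, the natural killer cell granule gene NKG7 and the globin HBD. CD4 had 552 and 571 at CD64 6 h, 518 and 600.0 at CD64 2 h, 2474 and 2396 at CD32 6 h, 1439.5 and 1178 at CD32 2 h, and 950.0 and 1092 in the controls, so that both CD32 groups were above both CD64 groups and CD32 6 h was highest. Its interaction was -0.89 ± 0.18 (adjusted p = 0.0102). CD4 dominated the summed signal of the T cell markers, which lay between 1370 and 1520 at CD64 6 h, 1040 and 1280 at CD64 2 h, 3270 and 3290 at CD32 6 h, 1970 and 2160 at CD32 2 h, and 1720 and 1980 in the controls. NKG7 had an interaction of 0.52 ± 0.12, and HBD, under the floor on both CD32 2 h arrays, -1.71 ± 0.48, a call lost whenever 1 array was left out. The part of other cells in the results was not tested.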

How the data were processed

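Signals are the deposited values of 10 one-colour short-oligonucleotide arrays, and per the labels every sample is RNA of U937 cells. The deposited intensity values are linear and never negative; from the values, the submitters had scaled each array, since the trimmed mean lies between 500.5 and 500.6. How probe signals were summarised is not given in the sources used here, and precision is limited by 2 arrays per group. Of 8793 probe sets 47 are array controls; 7840 carry 1 gene symbol, 388 several and 518 none. The floor of 37.5 is percentile 25 of the signals, and probe sets above it on at least 2 of 8 arrays were kept. A model of 4 group means was fitted with limma 3.58.1 (lmFit, eBayes with a variance trend) in R 4.3.3, with 4 residual degrees of freedom and two-sided tests. P-values were adjusted by Benjamini-Hochberg over the 7525 probe sets, and every adjusted p in the text is limma's. For genes with several probe sets the one with the highest mean was used.

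The named genes were the 12 highest and 12 lowest called interactions, the 3 largest in each shape with at least 10 calls, up to 3 called members of each of 33 gene lists, and the Fc gamma receptors; other called list members are named where a list's calls are described. Genes on chromosome Y and XIST were left out of the rule. Not every gene the rule gives is described. The members and lists were chosen with earlier results of these data known. The lists hold 1110 genes, 855 of them on the array. Alternatives were quantile and cyclic loess scaling, other floors and filters, no trend, all 10 arrays, a replicate block and leaving out each array. Promoters were searched on both strands over 250 bases before the start. On simulated data, with 200 of 7525 probe sets changed, 70% of interactions of 2 log2, 40% of 1, 32% of -1 and 64% of -2 were called, and 6.36% of the calls were false. The simulation had fewer changed probe sets than the data had calls. It also had independent noise and no technical difference between arrays in the bright range. Its rates therefore do not give the share of false calls in the data.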

Additional observations from a re-analysis of the deposited data

Results flagged for a closer look

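The interaction term itself tests whether the time step differs between CD64 and CD32, and 980 probe sets passed it. Among the 101 genes that the naming rule gave, 18 had both steps called and in opposite directions, so that their difference of steps was tested by the interaction. FOS, TRIB3, PHGDH and AARS1, described beyond that rule, also had opposite called steps. In 6 genes the CD64 step was up and the CD32 step down: CX3CR1 with a log2 interaction of 3.70, VPS54 with 2.86, CASP6 with 2.82, PSAT1 with 2.77, SLC7A11 with 1.53 and PSMD11 with 1.21. In 12 genes the CD64 step was down and the CD32 step up: CXCL8 with -3.52, HK2 with -1.82, IDI1 with -1.78, NDRG1 with -1.70, RPL30 and RPS18 with -1.44 each, TOP2A with -1.41, SQLE with -1.29, CKS2 with -1.18, SNRPG with -1.09, ATP5MC3 with -1.01 and TXN with -0.98. RPL30 and ATP5MC3 were called in the deposited scaling only, and RPS18 was not called after quantile scaling.

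The probe sets for added bacterial transcripts, which no comparison of genes uses, had a mean log2 signal above that of the controls (10.38) in 3 cross-linked groups: 10.55 at CD64 2 h, 12.1 at CD32 6 h and 11.03 at CD32 2 h. At CD64 6 h it was 9.03. Its part in the gene results was not tested.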

How the results depend on the processing

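Interaction calls numbered 596 positive and 384 negative as deposited. Positive calls came to 348 after quantile scaling, 355 after loess scaling and 278 without a variance trend; negative calls came to 126 without a variance trend and 172 without the brightest 5% of probe sets. The CD64 step had 650 calls up and 499 down; it had 409 up after quantile scaling, 383 up and 171 down without a trend, and 264 down without the brightest probe sets. The CD32 step had 179 up and 214 down; it had 89 up and 130 down without a filter, and 27 up and 12 down without a trend. At 2 h 557 probe sets were higher with CD64 than with CD32, against 358 without a filter and 271 without a trend. At 6 h 803 were higher and 637 lower, against 509 and 403 without a trend. When each array was left out in turn, positive interaction calls ranged between 262 and 464 and negative ones between 246 and 310. The corresponding ranges were 250 to 648 up and 237 to 491 down for the CD64 step, 32 to 172 up and 24 to 172 down for the CD32 step, 281 to 558 higher and 396 to 789 lower at 2 h, and 343 to 793 higher and 377 to 615 lower at 6 h. Each array left out also removes 1 residual degree of freedom, and its lone partner is then assumed to vary like the other groups. The positive calls were fewest without the first (305) or second (262) CD64 6 h array and the second CD32 2 h array (326). With steps sorted by a 1.5-fold difference in place of a call, a CD64 rise alone made up 40.9% of positive calls in place of 54.7%, and a CD64 fall alone 42.4% of negative calls in place of 60.7%; a CD64 fall alone was 50.8% after quantile and 46.2% after loess scaling. Interactions changed sign for H2AZ1 (0.06 after quantile and 0.07 after loess scaling), MT2A (0.29 after quantile scaling) and CTSG (0.04 after quantile scaling), and 1 probe set with several symbols was called at -0.52 as deposited and at 0.74 after quantile scaling. The cause of these changes was not tested. Group labels share only the word for a first array or duplicate: residuals of same-numbered arrays correlated between -0.0599 and 0.288, and a replicate block gave 590 positive and 376 negative interaction calls. Of 101 named genes 75 were called in both other scalings and 64 without each of the 8 arrays. Arrays with 20.2% to 29.8% of signals at or under the floor limit what can be said of weak transcripts.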
